A study of Mus musculus with 56 samples.

Results

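Insulin receptor and FOXO signalling genes were followed in the liver of mice fed only by day or only by night. The 10 genes were Insr, Irs1, Irs2, Pik3r1, Akt1, Akt2, Foxo1, Foxo3, Trib1 and Sesn1, and all 10 were found among the 25405 genes tested. They were chosen by name, and they and the gene lists further below were chosen with earlier results of these data known. Shares of all genes printed beside their counts are therefore context and not a test of enrichment. The livers came from 56 female C57BL/6J mice aged 9 weeks, kept under 12 h of light per day. For 7 days, food was given in the light phase, ZT0 to ZT12 (daytime-restricted feeding, DRF), or in the dark phase, ZT12 to ZT24 (nighttime-restricted feeding, NRF, the control regimen). Zeitgeber time (ZT) counts hours from lights on. Livers were taken every 4 h from ZT0 to ZT24, 4 animals for each of the 7 times of a regimen, so 28 libraries stood behind each curve. All animals were wild type on a restricted schedule, and no freely fed group was analysed here.

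Insulin released after a meal binds the insulin receptor on hepatocytes, which phosphorylates the adaptor proteins IRS1 and IRS2. These recruit phosphoinositide 3-kinase, whose regulatory subunit p85alpha is encoded by Pik3r1, and the lipid it makes activates the kinases AKT1 and AKT2. AKT phosphorylates the transcription factors FOXO1 and FOXO3 and keeps them out of the nucleus, so that in fasting liver FOXO proteins are free to drive genes of glucose output, of autophagy and of the pathway itself, Irs2 among them. All values here are RNA levels. Phosphorylation and nuclear location of these proteins were not measured.

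Levels are scaled counts: the deposited values were turned back into whole counts and put on a common library scale, without correction for gene length. The sum over genes was 800420 to 1023900 scaled counts, 1 unit stood for between 304 and 723 recovered counts, and correlations across genes between replicates of a group lay between 0.966 and 0.990. Of 5 hepatocyte markers, 4 were among the genes tested (Ttr, Apoa1, Cps1, Serpina1c) and Alb was not. Those 4 summed to between 25260 and 40160 scaled counts in the group means. The sums were 565 to 865 for 5 Kupffer cell markers, 279 to 363 for 5 sinusoidal endothelial markers and 703 to 902 for 5 stellate cell markers. They were 25.4 to 33.2 for 5 cholangiocyte markers and 18.1 to 28.8 for 5 lymphocyte markers. The 2 adipocyte markers among the genes tested, of 5 listed, summed to between 0.994 and 2.38, and 0 of 5 exocrine pancreas markers were tested. The daily rhythm differed between the regimens for 1 of the 4 hepatocyte, 1 of the 5 Kupffer, 3 of the 5 endothelial, 3 of the 5 cholangiocyte, 1 of the 2 adipocyte, 0 of the 5 stellate and 0 of the 5 lymphocyte markers. The daily mean differed for 3 of the 4 hepatocyte and 1 of the 2 adipocyte markers and for 0 of those of the other types. The part of cell makeup in the results below was not tested, and in whole liver fewer cells of a type and less RNA per cell cannot be told apart. An index of gene length also differed between groups. It is the rank correlation, across genes, of exon length with a library's deviation from the mean. Under DRF its group mean ran from -0.231 at ZT8 to 0.174 at ZT24, and under NRF from -0.183 at ZT0 to 0.181 at ZT24. In both regimens it was negative at ZT0, ZT4 and ZT8 and positive from ZT12 to ZT24. ZT0 (-0.123 under DRF) and ZT24 are the same clock time, so the index did not follow time of day alone. The 10 genes are 3982 to 13746 bases long. Where this index as a covariate ends or adds a printed call of these 10 genes, that is said beside it. Calls of the other genes named below were not compared with and without it.

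Every one of the 10 genes was expressed in all 56 livers. Per kilobase of exon, the insulin receptor was the most abundant, at 35.8 ± 7.46 scaled counts per kb (SD over 56 libraries), and it stood above the next gene, Akt1, in 56 of 56 libraries. Akt1 followed at 15.96 ± 2.73, Foxo3 at 14.5 ± 3.71, Foxo1 at 12.6 ± 2.63, Pik3r1 at 12.5 ± 3.61 and Irs1 at 9.55 ± 1.89 scaled counts per kb. Sesn1 at 6.29 ± 1.11, Irs2 at 6.08 ± 2.70 and Akt2 at 5.58 ± 0.60 were close together, and Trib1 was lowest at 2.16 ± 0.73. The ranks of Foxo1 over Pik3r1 (higher in 31 of 56 libraries), Sesn1 over Irs2 (31 of 56) and Irs2 over Akt2 (29 of 56) lay within the spread, as did Akt1 over Foxo3 (35 of 56).

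Daily rhythms and their timing were the readout that feeding time moved. With limma on log2(scaled count + 1) and Benjamini-Hochberg adjustment over all genes, 8 of the 10 genes were rhythmic over 24 h under DRF, where 34.9% of all genes were, and 10 of 10 under NRF, where 43.6% were. Irs1 and Akt2 were the ones not called under DRF. The rhythm differed between DRF and NRF for 9 of the 10 genes, all but Akt2, against 38.7% of all genes. Rhythm calls depend on abundance, and among genes with a mean of at least 10 scaled counts the same shares were 59.4%, 64.0% and 62.4%. The daily mean differed for 0 of the 10 genes (0 also at an unadjusted p under 0.05), against 6.82% of all genes, with log2 differences between -0.27 for Irs2 and 0.10 for Foxo1.

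**Figure D1:**
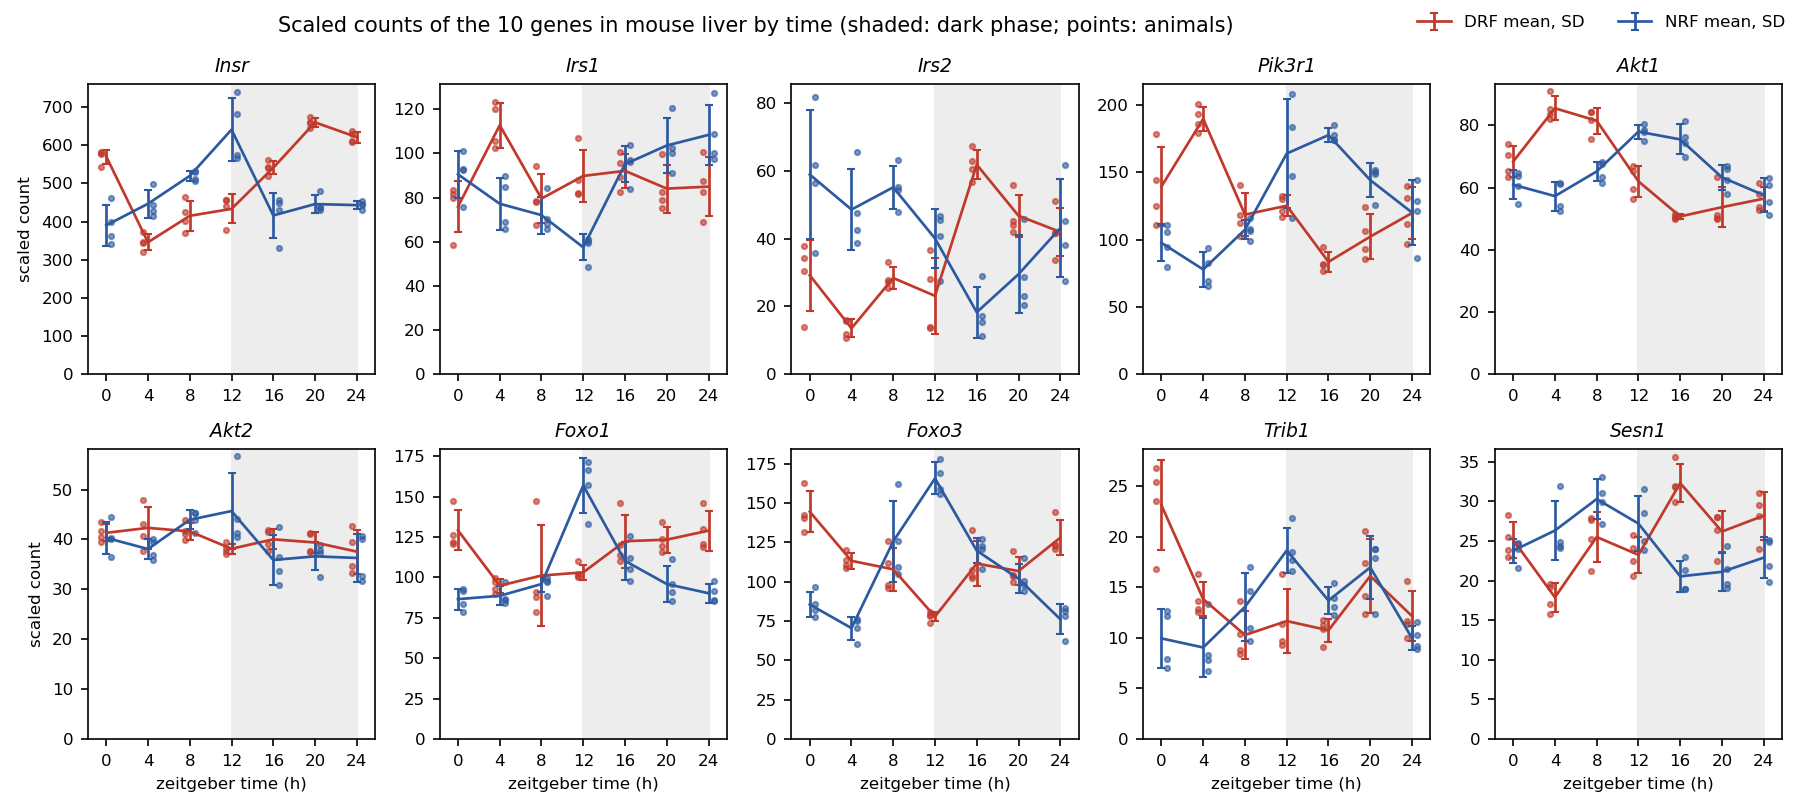
Scaled counts of the 10 genes (vertical axis, from 0) against zeitgeber time in hours (horizontal axis) under DRF (red) and NRF (blue); points are single animals, lines join group means, bars are the SD of 4 animals and the dark phase is shaded. Most pairs of curves cross, and Akt2 stays between 35.9 and 45.7 in the group means.

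At a single time, the 4 DRF and 4 NRF libraries were apart for 15.8% to 22.3% of all genes. The share of all genes apart at each of the 7 times was not counted. Among the 10 genes, Insr, the receptor itself (chr8:3122061-3279617, minus strand), was the only one whose libraries were apart at each of the 7 times. Under NRF its group means were higher at each later time from ZT0 to ZT12, when food arrived, with libraries at 576, 567, 738 and 682 scaled counts at ZT12, a mean of 641 ± 83.5 (SD, n = 4), and 456, 448, 330.2 and 429.6 4 h later, a mean of 416 ± 58.2. Under DRF the libraries at ZT12 were at 457, 377, 457 and 441, all below the NRF ones, and those at ZT20 were at 658, 662, 646 and 673, a mean of 659.7 ± 11.4, all above the NRF libraries of that time. Across the start of the DRF meal the DRF means were 570.2 ± 18.3 at ZT0 and 346 ± 21.1 at ZT4. The log2 difference, DRF minus NRF, was 0.56 ± 0.08 (adjusted p = 1.77e-06) at ZT0 and -0.56 ± 0.08 (adjusted p = 1.68e-06) at ZT12, each with its SE. The fitted peak lay at ZT19.8 ± 0.39 h (SE) under DRF and ZT10.4 ± 0.89 h under NRF, a shift of 9.34 ± 0.97 h (95% interval 7.39 to 11.3 h). On the values as deposited the shift was 5.17 h, and the differences at ZT4, ZT8, ZT12, ZT16 and ZT24 did not pass (adjusted p = 0.0674 to 0.22). The difference at ZT8 also did not pass without replicate 1 or 4 (adjusted p = 0.0505 and 0.0974). The fitted log2 amplitude was 0.42 ± 0.05 under DRF and 0.24 ± 0.05 under NRF, a difference of 0.19 ± 0.07 (SE). Against an exact 12-h shift, a test in which amplitude counts as well as timing, the rhythm of Insr still differed (adjusted p = 0.00634). It did not with the gene length index as a covariate (adjusted p = 0.587) and not without replicate 1, 2 or 4 (adjusted p = 0.0531 to 0.0708). An antisense gene, Gm16180, overlaps Insr and averaged 6.13 scaled counts.

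The substrates Irs1 and Irs2 followed different courses. Irs2 (chr8:10984681-11008458, minus strand), the adaptor that is induced in fasting liver, had the widest swing of the 10 genes. Its highest group mean was 4.56-fold its lowest under DRF (ZT16 over ZT4) and 3.22-fold under NRF (ZT0 over ZT16). The NRF high fell at the end of the meal, with 58.9 ± 19.0 scaled counts at ZT0, and at ZT24, the same clock time, the mean was 43.1 ± 14.3. At ZT12, the end of the NRF fast, it was 40.0 ± 8.68. At ZT4, 4 h into the DRF meal, the DRF libraries held 10.7, 16, 11.8 and 15.6 scaled counts and the NRF libraries 65.5, 38.6, 47.5 and 42.7. At ZT16, 4 h into the NRF meal, the order was turned, with 56.7, 62.8, 60.5 and 67.2 under DRF and 11.4, 15.5, 28.9 and 17.3 under NRF. The groups did not overlap at either time, and the log2 differences were -1.76 ± 0.28 (adjusted p = 5.86e-06) at ZT4 and 1.78 ± 0.28 (adjusted p = 9.03e-06) at ZT16. The peak moved from ZT4.79 ± 0.66 h under NRF to ZT18.1 ± 0.66 h under DRF, a shift of 10.7 ± 0.93 h (95% interval 8.85 to 12.6 h), and a difference from an exact 12-h shift was not detected (adjusted p = 0.495). Replicates of Irs2 were wide apart at some times, as at DRF ZT12, where the libraries held 14.1, 13.6, 28.1 and 36.6. A noncoding gene on the other strand, 9530052E02Rik, overlaps the Irs2 start region and had the pattern most like Irs2 among genes with a mean of at least 1 (Pearson r = 0.924 over 14 group means, at a mean of 7.28 against 38.4 scaled counts). Whether strand was used in counting is not given in the sources used here, so reads of these overlapping genes may be shared.

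Irs1 (chr1:82233101-82291416, minus strand) was rhythmic under NRF alone, although its difference between regimens passed (adjusted p = 0.000202). Under NRF it was lowest at ZT12, with libraries at 60.2, 48.7, 59.6 and 61.2 scaled counts, and highest at ZT24, with 97.4, 127, 99.9 and 109, and its fitted peak was at ZT21.4 ± 0.6 h. Under DRF no rhythm was called (adjusted p = 0.729, amplitude 0.07 ± 0.07), although the 4 libraries at ZT4, at 119.9, 105, 103 and 123, stood above all NRF libraries of that time. The log2 difference was 0.55 ± 0.12 (adjusted p = 0.000859) at ZT4 and 0.63 ± 0.12 (adjusted p = 0.0002) at ZT12, and the groups overlapped at the other 5 times. At ZT24 it passed narrowly in the other direction, -0.35 ± 0.12 (adjusted p = 0.0485), but not without replicate 1, 2 or 4 (adjusted p = 0.138 to 0.302). The difference in amplitude, DRF minus NRF, was -0.31 ± 0.09. A protein-coding gene on the other strand, Gm9747, overlaps Irs1 and averaged 4.45 scaled counts.

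The promoter sequences of Irs1, Irs2 and Akt1 are shown, the ones with a match to a searched motif before the start. The plan was to show promoters beside genes that move together, which Irs1 and Irs2 did not (Pearson r = -0.383 over 14 group means). Since these windows were picked for their matches, the matches in them are a description and no finding of their own. RefSeq windows of 250 bases before to 50 after the start (GRCm38.p6) matched 8 of the 10 genes with 14 windows, and Insr and Trib1 had no entry. Searched on both strands, the E-box CACGTG was found in 2 of the 14 windows, those of Irs1 and Irs2, against 7.15% of 32851 windows of all genes, and the insulin response core CAAAACA in the same 2 windows, against 6.28%. The FOXO core GTAAACA was found in 2 windows, 1 of 2 of Akt1 and 1 of 2 of Sesn1, against 3.65%, and the forkhead variant ATAAACA (4.60% of all windows) and the D-box TTATGTAA (0.938%) in none. The 250 bases before the RefSeq start are written 5′ to 3′ on the gene's strand, with the matched letters in capitals (TGTTTTG and TGTTTAC are CAAAACA and GTAAACA read on the other strand):
Irs1, chr1:82291440-82291689, minus strand: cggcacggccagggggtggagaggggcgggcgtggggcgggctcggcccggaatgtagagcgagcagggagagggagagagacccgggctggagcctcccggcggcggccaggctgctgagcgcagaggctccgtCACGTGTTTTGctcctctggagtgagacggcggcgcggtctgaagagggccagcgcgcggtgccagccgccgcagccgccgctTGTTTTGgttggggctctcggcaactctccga
Irs2, chr8:11008930-11009179, minus strand: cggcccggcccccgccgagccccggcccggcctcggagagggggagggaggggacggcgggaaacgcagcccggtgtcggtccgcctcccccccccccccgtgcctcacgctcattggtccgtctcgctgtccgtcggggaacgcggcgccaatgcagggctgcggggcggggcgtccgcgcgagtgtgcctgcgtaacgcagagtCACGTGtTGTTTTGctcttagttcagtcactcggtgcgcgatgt
Akt1, chr12:112674885-112675134, minus strand: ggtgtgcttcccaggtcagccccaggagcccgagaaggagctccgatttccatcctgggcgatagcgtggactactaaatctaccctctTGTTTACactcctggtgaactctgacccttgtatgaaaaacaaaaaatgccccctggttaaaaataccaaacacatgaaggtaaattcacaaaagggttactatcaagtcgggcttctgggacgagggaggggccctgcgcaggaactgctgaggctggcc
In Irs1 the E-box began 115 bases before the start, overlapping by its last 2 letters a TGTTTTG that began at 111, and another TGTTTTG began 32 bases before it. In Irs2 the E-box began 44 and the TGTTTTG 37 bases before the start. The RefSeq start of Irs2 lies 471 bases before the GENCODE start of the gene. In Akt1 the TGTTTAC began 161 bases before the start, and in Sesn1 it began 23 bases into the transcript. Such matches describe letters and not binding.

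Pik3r1 (chr13:101680563-101768217, minus strand), the p85alpha subunit, was close to a mirror image of Irs2. Over the 14 group means its Pearson r with Irs2 was -0.821, and with Akt1 it was 0.770. It was high 4 h into each meal, with DRF libraries at 200.3, 186, 179 and 193 scaled counts at ZT4 and NRF libraries at 174, 178, 185 and 174 at ZT16. The other regimen stood well below at those times, at 82.7, 69.2, 93.5 and 65.5 under NRF at ZT4 and 94.2, 81.4, 76.3 and 81.9 under DRF at ZT16. The log2 differences were 1.29 ± 0.15 (adjusted p = 5.85e-09) and -1.08 ± 0.15 (adjusted p = 4.57e-07). Peaks fell at ZT4.63 ± 0.6 h under DRF and ZT15.8 ± 0.43 h under NRF, a shift of 11.2 ± 0.74 h (95% interval 9.73 to 12.7 h), and a difference from an exact 12-h shift was not detected (adjusted p = 0.354). NRF ZT12 held a wide range for this gene, with libraries at 208, 116, 147 and 184.

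The 2 AKT kinases behaved differently. Akt1 (chr12:112653821-112674884, minus strand) had its fitted peak in the fed phase in both regimens. Under NRF its highest group mean, 78.0 ± 2.29 scaled counts, was at ZT12, at the end of the fast, beside 75.5 ± 4.81 at ZT16. Its median coefficient of variation between replicates was 6.92% under DRF and 6.42% under NRF. Under DRF its libraries were at 90.9, 82, 83.6 and 85.4 scaled counts at ZT4 and 50, 51.5, 51 and 50.3 at ZT16, and under NRF at 61.3, 52.4, 61.1 and 54.1 and 69.8, 76.3, 74.4 and 81.4 at the same times. The groups were apart at ZT4, ZT8, ZT12 and ZT16, with log2 differences of 0.57 ± 0.07 (adjusted p = 2.37e-08) at ZT4 and -0.56 ± 0.07 (adjusted p = 7.09e-08) at ZT16. Its peak moved by 7.91 ± 0.59 h, from ZT13.8 ± 0.49 h under NRF to ZT5.93 ± 0.33 h under DRF, and the 95% interval of the shift, 6.73 to 9.1 h, did not reach 12 h. Its amplitude was larger under DRF (0.39 ± 0.04) than under NRF (0.22 ± 0.03), a difference of 0.17 ± 0.05. Akt2 (chr7:27591552-27640826, plus strand), the kinase isoform best known from insulin control of glucose, held group means between 35.9 and 45.7 scaled counts. It had a shallow rhythm under NRF (amplitude 0.14 ± 0.04, adjusted p = 0.00541, though 0.125 on the values as deposited), and its rhythm difference did not pass (adjusted p = 0.156), though it did with the length index as a covariate (adjusted p = 0.0415). The difference at ZT12 was -0.24 ± 0.09 (adjusted p = 0.0537) and the groups overlapped at the other 6 times.

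Foxo1 (chr3:52268336-52353221, plus strand) and Foxo3 (chr10:42181841-42276755, minus strand), the transcription factors restrained by AKT, had fitted peaks within 1 SE of each other under NRF. Under NRF both were highest at ZT12, at the end of the fast, with libraries at 171, 133, 157 and 166 scaled counts for Foxo1 and 156, 159, 169 and 178 for Foxo3. Under DRF the ZT12 libraries, at the end of the meal, held 101, 100, 102 and 110.1 for Foxo1 and 78.6, 80.9, 78.2 and 73.6 for Foxo3, all below the NRF ones. At ZT0, before the DRF meal, the DRF means were 129 ± 12.4 for Foxo1 and 145 ± 13.1 for Foxo3, against 86.5 ± 6.56 and 85.6 ± 8.1 under NRF. For Foxo3 the log2 difference was 0.75 ± 0.10 (adjusted p = 3.57e-07) at ZT0 and -1.08 ± 0.10 (adjusted p = 5.79e-11) at ZT12, and for Foxo1 it was 0.57 ± 0.11 (adjusted p = 0.000163) and -0.59 ± 0.11 (adjusted p = 9.89e-05). The fitted NRF peaks were ZT13.1 ± 0.67 h and ZT13.1 ± 0.47 h, and the DRF peaks ZT20.2 ± 0.82 h for Foxo1 and ZT0.15 ± 0.73 h for Foxo3. The fitted peak of Foxo1 therefore shifted by 7.1 ± 1.1 h (95% interval 4.98 to 9.22 h), and that of Foxo3 by 11.1 ± 0.86 h (9.37 to 12.8 h). The highest group means of both genes, however, were at ZT12 under NRF and ZT0 under DRF. For Foxo1 the cosine explained 71.4% of the variance of the group means under NRF and 82.0% under DRF, so its shift depends on the fitted shape. The amplitude of Foxo3 was smaller under DRF (0.28 ± 0.05) than under NRF (0.51 ± 0.06), a difference of -0.23 ± 0.07, while that of Foxo1 differed by -0.08 ± 0.07. On the values as deposited the shifts were 4.68 h for Foxo1 and 8.05 h for Foxo3. Foxo1 lost its DRF rhythm call without replicate 2 (adjusted p = 0.0658), and at DRF ZT8 its libraries held 78.7, 87.8, 147 and 90.8. An antisense gene, Gm20402, overlaps Foxo1 and averaged 15.5 scaled counts.

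Trib1 (chr15:59648350-59657099, plus strand), a pseudokinase that steers the COP1 ubiquitin ligase to C/EBPalpha and affects lipogenic genes in liver, was the least abundant. At ZT0 the DRF libraries held 16.8, 23.5, 26.8 and 25.4 scaled counts and the NRF libraries 7.91, 12.2, 12.7 and 7.01, with no overlap and a log2 difference of 1.16 ± 0.19 (adjusted p = 1.16e-05). The same time of day 24 h later did not repeat this, since at ZT24 the DRF libraries were at 11.6, 9.96, 11.4 and 15.6 and overlapped those of NRF (log2 difference 0.25 ± 0.19 (adjusted p = 0.479)). Its DRF rhythm (adjusted p = 0.00579) was not called without ZT0 (adjusted p = 0.2) or without replicate 4 (adjusted p = 0.0555). Under NRF the peak was at ZT14.6 ± 0.79 h, with ZT12 libraries at 17.7, 18.5, 21.8 and 16.6.

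Sesn1 (chr10:41809935-41908424, plus strand), a sestrin that restrains mTORC1 when amino acids are scarce and linked to FOXO and p53 control, moved with Irs2 (Pearson r = 0.814 over 14 group means). Its libraries at ZT16 were at 35.6, 31.9, 31.8 and 29.9 under DRF and 18.9, 22.9, 19 and 21.3 under NRF, and at ZT4 at 15.8, 19.6, 17 and 19.2 and 24.4, 31.9, 24.1 and 24.8. The groups were apart at these 2 times, lower under DRF at ZT4 and higher at ZT16, with log2 differences of -0.53 ± 0.10 (adjusted p = 0.000104) and 0.63 ± 0.10 (adjusted p = 1.12e-05). Its peak shifted by 10.1 ± 1 h, from ZT7.37 ± 0.56 h under NRF to ZT17.5 ± 0.85 h under DRF, with an amplitude difference of -0.01 ± 0.08. On the values as deposited its NRF rhythm was not called (adjusted p = 0.109).

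The shift between regimens could be read for the 8 genes rhythmic in both. It ran from 7.10 h for Foxo1 to 11.2 h for Pik3r1 and was at least 8 h for 6 of the 8 genes, where 50.9% of the 5887 genes rhythmic in both regimens (23.2% of all) shifted by at least 8 h, and 0 of the 8 shifted by 4 h or less, where 24.5% did. Livers were sampled every 4 h, and the cosine explained between 49.2% (Sesn1, DRF) and 93.7% (Akt1, NRF) of the variance of the group means of these 8 genes. The fitted DRF rhythm, in amplitude and timing together, differed from the NRF rhythm moved by exactly 12 h for 6 of the 10 genes (34.2% of all genes, 52.3% of those with a mean of at least 10). For Irs2, Pik3r1, Trib1 and Sesn1 no such difference was detected. For Trib1 it was called, however, with the length index as a covariate (adjusted p = 0.04), without ZT0 (adjusted p = 0.0408) and on the values as deposited (adjusted p = 0.00324), and for Pik3r1 on the values as deposited (adjusted p = 0.0288). With the length index Insr and Akt2 (adjusted p = 0.231) were not called, and the number called over all genes went from 8698 to 4949. This count of 6 fell to between 2 and 5 when 1 replicate number was left out. A call here can rest on amplitude and is not by itself a shift short of 12 h. Of the genes called, Irs1 and Akt2 had no rhythm call under DRF. The 95% interval of the Foxo3 shift, 9.37 to 12.8 h, holds 12 h. Peak times form a circle, so their order was read around it. Under NRF, from ZT0 on, it ran Irs2, Sesn1, Insr, Foxo3, Foxo1, Akt1, Trib1, Pik3r1. Under DRF, started at Sesn1 (ZT17.5), it ran Sesn1, Irs2, Insr, Foxo1, Trib1, Foxo3, Pik3r1, Akt1, with ZT0 between Trib1 and Foxo3. By fitted peak, Akt1 came before Pik3r1 under NRF (ZT13.85 ± 0.49 h and ZT15.84 ± 0.43 h) and after it under DRF (ZT5.93 ± 0.33 h and ZT4.63 ± 0.6 h). Both gaps are shorter than the 4 h between sampling times, and the order was not tested. Under NRF, Foxo3 and Foxo1 differed by less than their combined SE, and so did Foxo1 and Akt1 and also Akt1 and Trib1. Sesn1 and Irs2 did so under DRF, as did Insr and Foxo1, and Trib1 and Foxo3.

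**Figure D2:**
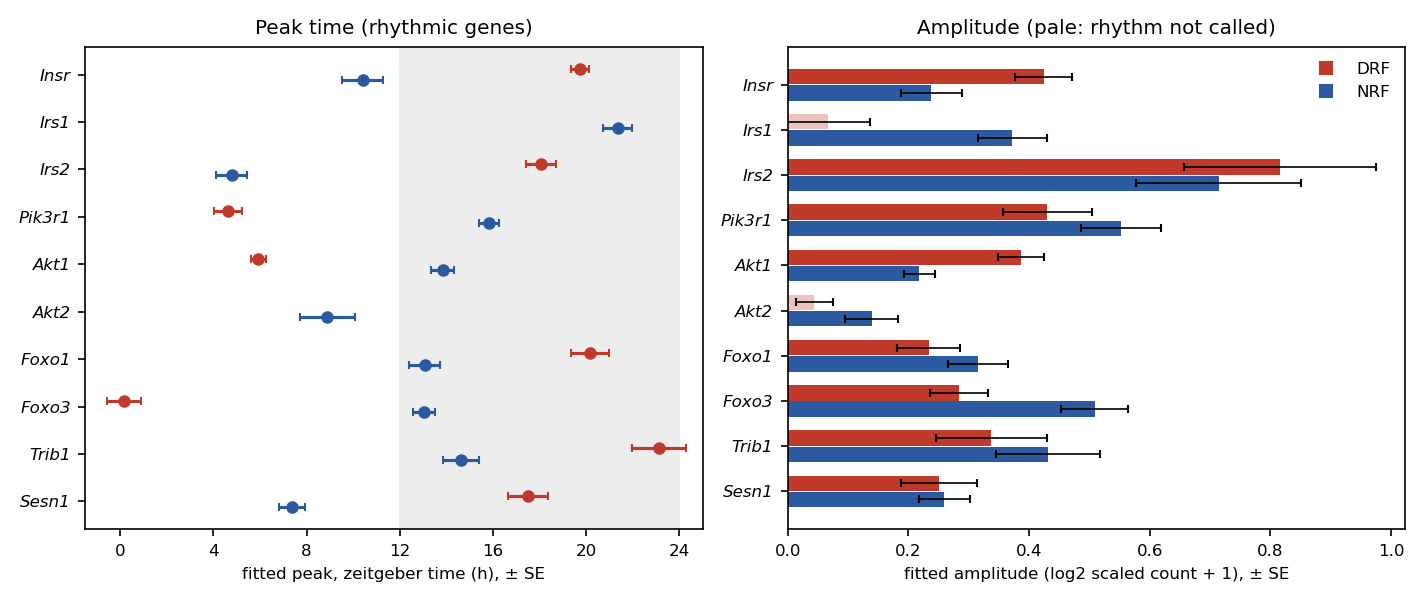
Left, fitted peak in zeitgeber hours with its SE for each gene called rhythmic, under DRF (red) and NRF (blue), with the dark phase shaded; right, fitted log2 amplitude with its SE, pale where the rhythm was not called. Irs2 has the largest amplitudes, 0.82 under DRF and 0.71 under NRF, and under NRF the peaks of Foxo1 and Foxo3 coincide near 13.1 h.

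**Figure D3:**
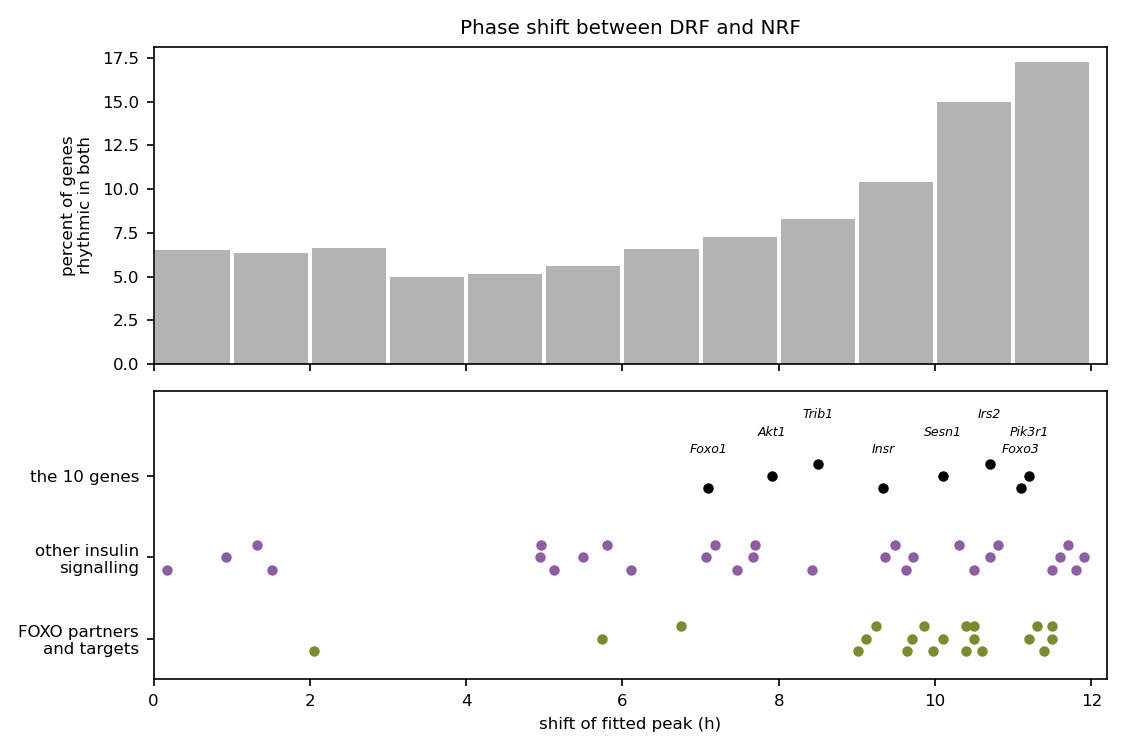
Top, percent of the 5887 genes rhythmic in both regimens (vertical axis) by shift of the fitted peak in hours (horizontal axis, bins of 1 h); bottom, the shift of each of the 8 genes and of the listed insulin signalling and FOXO genes that were rhythmic in both. The 8 genes sit between 7.10 and 11.2 h.

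At equal clock time the regimens are always in opposite feeding states. The difference passed the test for 6 of the 10 genes at ZT0 (16% of all genes), 8 at ZT4 (20.4%) and 3 at ZT8 (13%), for 7 at ZT12 (15.2%), then 5 at each of ZT16 (15.1%), ZT20 (13.7%) and ZT24 (14%). At some time 9 of the 10 genes differed, against 42.5% of all genes and 70.2% of those with a mean of at least 10. The 4 libraries of each regimen did not overlap for 4 genes at ZT0 (19.5% of all genes), 7 both at ZT4 (22.3%) and at ZT12 (16.2%), 6 at ZT16 (15.8%), and 3 each at ZT8 (18%), ZT20 (17.5%) and ZT24 (16.8%). ZT4 separated 5 genes that were higher under DRF (Pik3r1, Foxo3, Trib1, Akt1 and Irs1) from 3 that were lower (Irs2, Sesn1 and Insr). Trib1 was not called there with the length index as a covariate (adjusted p = 0.105) or without replicate 1, 2 or 3 (adjusted p = 0.0909 to 0.128), nor was Irs1 without replicate 4 (adjusted p = 0.0539). At ZT12 Irs1 was the single gene higher under DRF, while Foxo3, Irs2, Trib1, Foxo1, Insr and Akt1 were lower. The ZT12 call was lost for Irs2 without replicate 1, 2 or 3 (adjusted p = 0.0759 to 0.241) and for Trib1 without replicate 1 or 3 (adjusted p = 0.0718 and 0.147), and Pik3r1 was added with the length index as a covariate (-0.42, adjusted p = 0.0325). All times share the same fit, and 4 animals stand behind each mean.

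**Figure D4:**
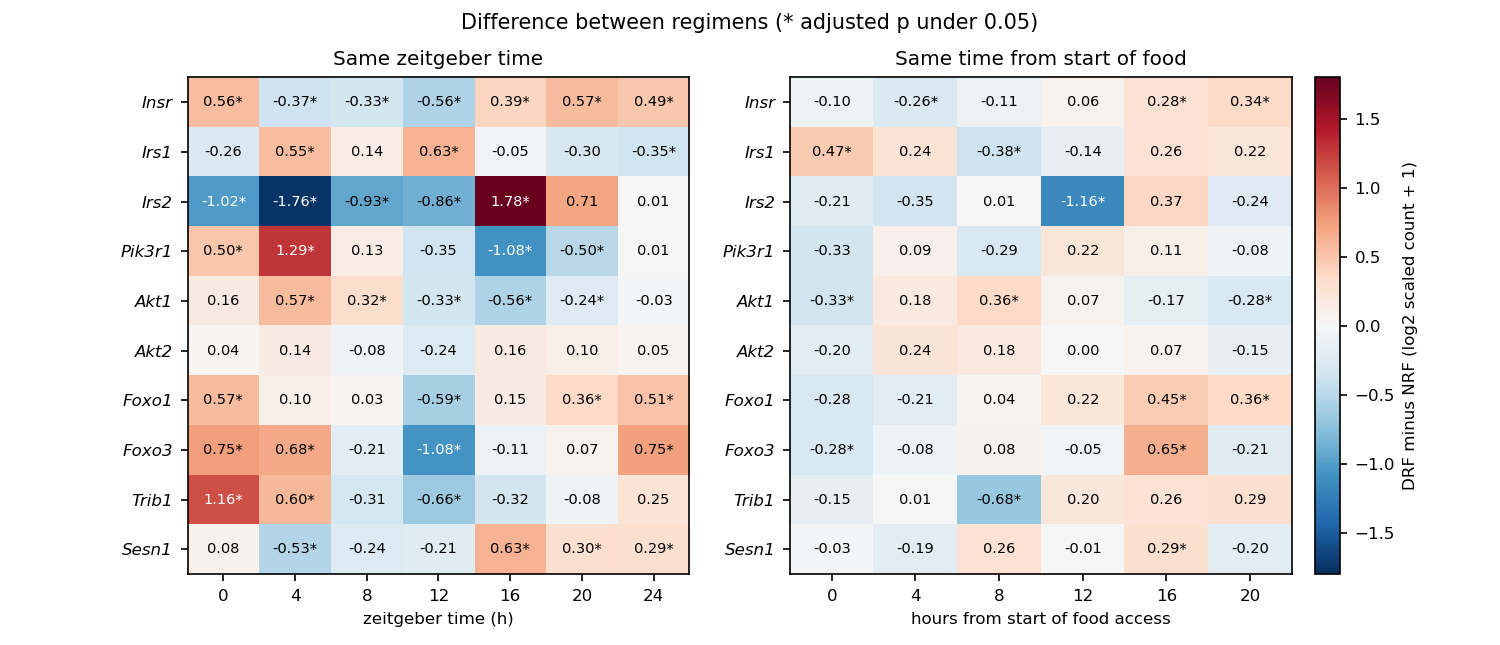
Difference between regimens for each gene (rows), as log2(scaled count + 1), DRF minus NRF, at equal zeitgeber time (left) and at equal hours from the start of food access (right); red is higher under DRF, blue lower, and a star marks an adjusted p under 0.05. The deepest cells on the left, Irs2 at ZT4 (-1.76) and ZT16 (1.78), are at -0.35 and 0.37 on the right at 4 and 16 h from the start of food.

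To ask how far levels followed the meal, groups were set side by side at equal hours from the start of food access, when light and dark are opposite. Over the 6 aligned times 9 of the 10 genes still differed (40.7% of all genes, 66.3% of those with a mean of at least 10), all but Pik3r1 (adjusted p = 0.084). With the length index as a covariate 7 differed, and Insr and Akt2 were then not called (adjusted p = 0.0581 and 0.166). On the values as deposited Pik3r1 was called (adjusted p = 0.00606) and Akt1 and Akt2 were not (adjusted p = 0.0658 and 0.192). Leaving out 1 replicate number ended the call of Akt2, Sesn1, Trib1 or Irs2 in at least 1 case each, with adjusted p of up to 0.317. Across the 10 genes the largest aligned difference was that of Irs2 at 12 h, -1.16 ± 0.24 (adjusted p = 0.0031), where the DRF mean of 23.1 at ZT12 stood against NRF means of 58.9 at ZT0 and 43.1 at ZT24. It did not pass without ZT0 (-0.93, adjusted p = 0.058) or without replicate 1 or 2 (adjusted p = 0.0668 and 0.0578). Foxo3 was higher under DRF 16 h after the start of food, by 0.65 ± 0.10 (adjusted p = 1.39e-05), and Foxo1 by 0.45 ± 0.11 (adjusted p = 0.00301), the latter not called without replicate 4 (adjusted p = 0.0563). Trib1 was lower under DRF at 8 h, -0.68 ± 0.19 (adjusted p = 0.016), but not called without replicate 2 or 4 (adjusted p = 0.136 and 0.0686). Insr was higher under DRF in the later fast, by 0.28 ± 0.08 (adjusted p = 0.0143) at 16 h and 0.34 ± 0.08 (adjusted p = 0.00266) at 20 h. The first call was lost without replicate 2 or 4 (adjusted p = 0.124 and 0.149), and the second value was 0.16 (adjusted p = 0.262) with the length index as a covariate. Akt1 crossed, at -0.33 ± 0.06 (adjusted p = 0.000326) when food arrived and 0.36 ± 0.07 (adjusted p = 0.000558) at 8 h. The first was not called without ZT24 (adjusted p = 0.135), the second not with the length index (adjusted p = 0.0851), and neither on the values as deposited (adjusted p = 0.0736 and 0.626). By single aligned time, 3 of the 10 genes differed at 0 h (5.55% of all genes), 1 at 4 h (14.7%), 3 at 8 h (11.6%), 1 at 12 h (4.68%), 4 at 16 h (17.3%) and 3 at 20 h (16.3%). With the length index as a covariate the counts were 0 at 4 h, 1 at 8 h and 0 at 20 h.

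ZT0 and ZT24 are the same clock time in different animals and served as a control. Under DRF, 2 of the 10 genes differed between them (3.07% of all genes): Trib1, by -0.87 ± 0.19 (log2, ZT24 minus ZT0, adjusted p = 0.00801), and Akt1, by -0.27 ± 0.07 (adjusted p = 0.0211). With the length index as a covariate 0 of the 10 were called. Trib1 was not called without replicate 2 or 3 (adjusted p = 0.0787 and 0.0929), nor Akt1 without replicate 2, 3 or 4 (adjusted p = 0.0746 to 0.262). Under NRF 0 of the 10 differed (7.82% of all genes), and on the values as deposited 5 did. The change from ZT0 to ZT24 differed between the regimens for 0 of the 10 (0.00394% of all genes).

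A list of 50 further insulin signalling genes, all of them tested, gave 36 rhythmic under DRF (72%, against 34.9% of all genes and 59.4% of those with a mean of at least 10), 37 under NRF (74%, against 43.6% and 64.0%) and 35 with a rhythm difference (70%, against 38.7% and 62.4%), and 29 differed after a 12-h shift (58%, against 34.2% and 52.3%). The median size of the rhythm difference was 0.31 on the log2 scale, against 0.13 over all genes. Of the 50 genes, 4 had a higher and 2 a lower daily mean under DRF, with a median of 0.02 (6.82% of all genes differed in either direction, and 14.7% of those with a mean of at least 10). Of the 29 genes rhythmic in both regimens, 14 shifted by at least 8 h, a share of 48.3% against 50.9% of all genes rhythmic in both, and 4 by 4 h or less. Trib3, a stress-induced pseudokinase that can bind AKT, had the smallest p of the rhythm difference (adjusted p = 6.44e-16). Its NRF libraries at ZT8 held 15.7, 9.95, 13.2 and 16.2 scaled counts and its DRF libraries 1.13, 1.2, 1.26 and 1.26, with no overlap, and its peak shifted by 11.9 ± 0.55 h. Mtor, the growth kinase downstream of AKT, was at 212 ± 32.3 at ZT8 and 100 ± 4.21 at ZT20 under NRF, against a range of group means of 111 to 154 under DRF. Eif4ebp1, a translation repressor that mTOR inactivates, peaked at ZT8 under NRF (23.5 ± 0.869) and at ZT0 under DRF (22.9 ± 1.19). Prkcz (an atypical protein kinase C), Phlpp1 (a phosphatase of AKT) and Pik3c3 (the lipid kinase of autophagy) shifted by 11.8 ± 0.82 h, 11.7 ± 0.64 h and 11.6 ± 0.67 h.

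Igf1r, the related growth factor receptor, was low, between 9.71 and 14.3 under DRF, and rhythmic under DRF (adjusted p = 1.24e-06) but not called under NRF (adjusted p = 0.108). Grb10, an adaptor that inhibits the receptor, showed no rhythm difference that passed (adjusted p = 0.102).

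FOXO partners and textbook targets of FOXO or insulin were tested for 39 of 40 listed genes. Of these, 24 were rhythmic under DRF (61.5%, against 34.9% of all genes and 59.4% of those with a mean of at least 10), 29 under NRF (74.4%, against 43.6% and 64.0%), 30 differed in rhythm (76.9%, against 38.7% and 62.4%) and 18 differed after a 12-h shift (46.2%, against 34.2% and 52.3%). They had a median size of the rhythm difference of 0.62 (log2) against 0.13 over all genes. Daily means were higher under DRF for 7 and lower for 1, against 6.82% of all genes in either direction and 14.7% of those with a mean of at least 10. Of the 21 rhythmic in both regimens, 18 shifted by at least 8 h (85.7%, against 50.9% of all such genes) and 1 by 4 h or less. Rictor stands in both lists. Pck1, the gluconeogenic enzyme repressed by insulin, stood under DRF at 1010.0 ± 71.3 scaled counts at ZT0 and 141 ± 41.5 at ZT4, and under NRF at 1036 ± 215 at ZT12 and 286 ± 105 at ZT16. Both rhythms passed (adjusted p = 7.95e-07 and 2.56e-07), and the peak shifted by 9.01 ± 0.79 h. Its NRF libraries at ZT12 held 740.3, 1245, 1121 and 1036 and its DRF libraries 196, 325, 242 and 287. Srebf1, the lipogenic transcription factor, was highest under DRF at ZT4 (425 ± 32.6) and under NRF at ZT16 (358 ± 41.8), a shift of 11.5 ± 0.56 h. G6pc, the last enzyme of glucose output and a FOXO1 target, did not follow this course: it was highest at ZT16 under both regimens, at 306 ± 55.7 and 293 ± 83. Its DRF rhythm did not pass (adjusted p = 0.0637), its NRF rhythm did (adjusted p = 7.30e-07), and the rhythm difference passed narrowly (adjusted p = 0.0498). Igfbp1, another FOXO1 target, varied widely between animals, as in the NRF libraries at ZT12 (7.73, 53.3, 37.4 and 61.3), and its rhythm was called in neither regimen (adjusted p = 0.156 and 0.305), while its rhythm difference between the regimens passed narrowly (adjusted p = 0.0476).

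**Figure D5:**
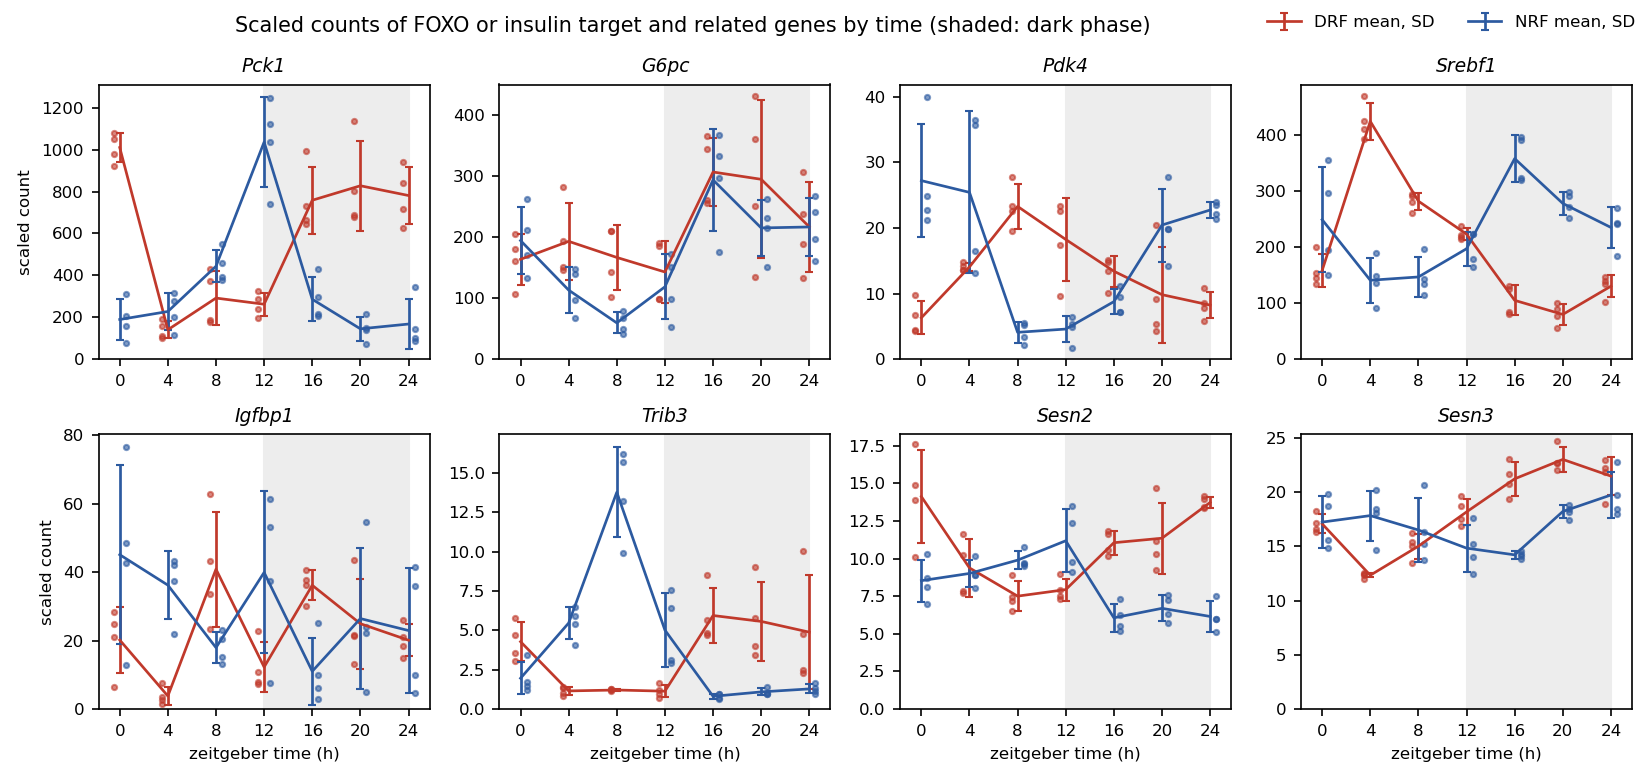
Scaled counts (vertical axis, from 0) of 8 FOXO or insulin target and related genes against zeitgeber time in hours under DRF (red) and NRF (blue); points are animals, lines join means and bars are the SD of 4 animals. Pck1 is lower and Srebf1 is higher 4 h into each meal than at its start, while G6pc is highest at ZT16 in both regimens.

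The sestrins were not alike. Sesn2 was higher in its daily mean under DRF by 0.27 (log2, adjusted p = 0.00278) and shifted by 10.3 ± 0.93 h, and Sesn3 shifted by 6.75 ± 1.1 h, both at low levels (group means between 6.07 and 14.1 for Sesn2 and between 12.3 and 23 for Sesn3). Among the remaining genes with the smallest p in this list, Pnpla2 (triglyceride lipase), Cdkn1a (cell cycle inhibitor), Pdk4 (inhibitor of pyruvate dehydrogenase) and Atg14 (autophagy) shifted by 11.4 ± 0.5 h, 11.3 ± 0.67 h, 10.5 ± 0.79 h and 9.64 ± 0.65 h. Pdk4 was at 23.3 ± 3.41 scaled counts at ZT8 under DRF and 4.1 ± 1.6 under NRF.

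The genes most like each of the 10 were named by Pearson correlation over the 14 group means, as a description in which all points share the same libraries. For Pik3r1 they were Plekha8 (r = 0.961), Baz1b (0.957) and the clock gene Per2 (0.954). For Insr they were Arhgef12 (0.983), Fnip1 (0.980), which encodes a folliculin partner, and Fam91a1 (0.957). For Irs2 they were 9530052E02Rik, Tmco6 (0.913) and Ceacam1 (0.906), itself a substrate of the insulin receptor. For Irs1 they were Nif3l1 (0.957), Yipf5 (0.914) and Gtf2h3 (0.910). For Foxo1 they were Slc25a32 (0.970), Scarb2 (0.962) and Acsm3 (0.939), and for Foxo3 Clcn2 (0.951), Kcnk5 (0.941) and Cyth1 (0.940). Akt1 was nearest Gm44570 (0.952), Idnk (0.921) and the translation factor Eif4g1 (0.916), and Akt2 was nearest F530104D19Rik (0.945), Gm19104 (0.944) and Coq8b (0.908). Sesn1 was nearest Sash1 (0.939), Tcp11l2 (0.935) and the growth factor receptor gene Erbb3 (0.933). Trib1 had looser neighbours, Ppp1r10 (0.872) and Snrk (0.870). Among the 10 genes themselves the closest pairs were Irs2 with Sesn1 (0.814), Insr with Foxo1 (0.804), Foxo1 with Foxo3 (0.774) and Pik3r1 with Akt1 (0.770).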

How the data were processed

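RNA from 56 mouse livers was sequenced after ribosomal RNA depletion with strand-specific paired reads. The submitters' processing notes name CASAVA 1.8, featureCounts 1.5.0-p3 and the builds mm10 and GRCm38.p6; neither the order of steps nor whether counting used strand is given in the sources used here. The authors deposited gene values named TPM, treated here as a score, because they are logarithmic: value times exon length (GENCODE vM21, GRCm38) followed a·ln(1 + f·k) with whole k. That curve was fitted per library, and scaled counts are f·k. In genes left out of the fit, 98.9% of values up to 10 recovered counts and 96.7% of those up to 100 lay within 0.05 of a whole number (medians). Of 25415 genes, 22941 were whole with the annotated length, 2198 with a searched length, 24 under a wider tolerance, 242 were too deep to judge and 10 were left out. Of the 10 genes, 9 were whole in 56 of 56 libraries and Insr in 45. Recovered counts ran from 286.4 to 659.2 M a library (M is 1000000; median 470.95 M), so they are not reads and no counting interval was drawn; precision is the spread between animals.

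Groups came from the labels, and 0 value columns were without a sample. limma 3.58.1 (R 4.3.3; trend) was fitted to log2(scaled count + 1) over 25405 genes (filter: deposited values averaging 0.1 or more), as a 24-h cosine model per regimen and as 14 group means. Benjamini-Hochberg adjustment ran over all genes, with a threshold of 0.05. A log2 difference on this scale understates changes of low genes. Peak times and amplitudes came from least squares in Python 3.11.15, with delta-method errors and 95% intervals. The planned tests named linear TPM and were applied to scaled counts. On simulated data the rhythm difference was recovered for 86% of genes changed by 0.5 and 100% of those changed by 1 (log2), among 25405 genes. The rule for named genes took the 10 genes, the 3 most like each, and from each list the 6 with the smallest p of the rhythm difference plus 11 fixed genes; 3 of the genes it took are not reported here. Members and lists were chosen with earlier results of these data known. Alternatives were the values as deposited, other pseudocounts, scalings and filters, a replicate block, the length index, linear values, a rank test and left-out times or replicates. Circular RNAs were not analysed here.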

Additional observations from a re-analysis of the deposited data

Results flagged for a closer look

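Of the 140 groups of 4 libraries formed by the 10 genes, 9 held a library farther from the rest than Dixon's 95% critical value allows, and chance alone gives about 1 such group in 20. For Insr they were DRF ZT0, where replicate 3 was at 542.8 scaled counts against 578 to 581, and NRF ZT20, where replicate 1 was at 479.2 against 431 to 438. For Irs1 they were DRF ZT0, where replicate 1 was at 58.52 against 79.9 to 83.3, and NRF ZT12, where replicate 2 was at 48.72 against 59.6 to 61.2. In Pik3r1 at NRF ZT20 replicate 4 was at 125.3 against 149 to 152, and in Akt1 at DRF ZT20 replicate 4 was at 63.36 against 49.9 to 51.3. In Foxo3 at DRF ZT24 replicate 3 was at 144.5 against 121 to 124, in Trib1 at NRF ZT20 replicate 1 was at 12.38 against 17.9 to 18.8, and in Sesn1 at NRF ZT4 replicate 2 was at 31.95 against 24.1 to 24.8. NRF ZT20 replicate 1 was the one library flagged for 2 genes, Insr and Trib1.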

How the results depend on the processing

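The numbers of the 10 genes called rhythmic (7 or 8 under DRF, 8 to 10 under NRF), differing in rhythm (9 or 10) and differing in daily mean (0) moved by less than 1.5 times under every alternative run, and so did the 5 to 7 genes that shifted by at least 8 h. Same-numbered samples are different animals, and their deviations did not move together (median r of 0.00590 over 364 pairs of groups and numbers). A replicate block moved 1 count by over 1.5 times, that at 4 h from the start of food, from 1 to 2 of the 10 genes. Leaving out 1 replicate number moved the following counts among the 10 genes: those that differed after a 12-h shift (6) to between 2 and 5, the differences at ZT8 (3) to between 1 and 2, at ZT20 (5) to between 1 and 4 and at ZT24 (5) to between 3 and 4, those at 4 h (1) and 12 h (1) from the start of food to between 0 and 1, at 8 h (3) to between 1 and 2 and at 16 h (4) to between 1 and 3, and those between ZT0 and ZT24 under DRF (2) and NRF (0) to between 0 and 2. Over all genes it moved the daily mean calls (1733) to between 755 and 1367, those at ZT4 (5170) to between 3257 and 4757, at ZT8 (3299) to between 1979 and 2568, at ZT12 (3849) to between 2466 and 3212, at ZT16 (3848) to between 2247 and 3073, at ZT20 (3491) to between 2265 and 2663 and at ZT24 (3568) to between 2235 and 2901, and those between ZT0 and ZT24 to between 119 and 594 under DRF (780) and between 157 and 2628 under NRF (1986). Fewer samples stood behind each of these fits.

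The values as deposited, which are already logarithmic, gave 1 of the 10 genes at ZT8, 4 at ZT12, 1 at ZT20 and 2 at ZT24, 1 at 0 h and 3 at 4 h from the start of food, and 1 under DRF and 5 under NRF between ZT24 and ZT0 (1834 and 6050 of all genes). On that scale Akt1 turned sign at 20 h from the start of food (0.00226 against -0.28) and between ZT0 and ZT24 under NRF (0.0815, adjusted p = 0.00532, against -0.08), and the shifts of Insr (5.17 h), Foxo1 (4.68 h), Foxo3 (8.05 h), Trib1 (7.00 h) and Akt1 (9.85 h) moved by more than their SE. With the length index as a covariate, 4949 genes differed after a 12-h shift, 14 and 0 genes between ZT0 and ZT24 under DRF and NRF, and among the 10 genes 0 differed at 4 h, 1 at 8 h and 0 at 20 h from the start of food and 0 between ZT0 and ZT24 under DRF. Without ZT24, 0 of the 10 genes differed at 0 h and 2 at 4 h from the start of food, without ZT0 none (0) at 12 h, and with a filter on a mean of 1 scaled count 2 at 4 h. Over all genes, the calls under the alternatives other than left-out replicates ran from 2280 to 3742 at ZT8 (3299 in the main fit) and from 3295 to 3954 at ZT12 (3849). They ran from 2853 to 4271 at ZT20 (3491), from 2783 to 3860 at ZT24 (3568) and from 7728 to 10401 over the aligned times (10350). The cause of these changes was not tested. The alternatives planned for circular RNAs were not run, since their identifiers carry no coordinates and were not matched to genes.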
